A study of Mus musculus with 37 samples.

Results

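The comparison asked how T cell receptor beta chain repertoires of lymph nodes differed when the kinase inhibitor PLX3397 was added to paclitaxel (PTX) in mice with mammary tumors. Of the 37 libraries of the series, 14 were used, chosen by their treatment label: 6 PLX+PTX and 2 PTX mice of the time point labelled d105, and 3 PLX+PTX and 3 PTX mice of d95. Differences were taken within each day and then averaged over the 2 time points. All 14 mice were MMTV-PyMT females, in which a mouse mammary tumor virus promoter drives the polyoma middle T oncogene in mammary epithelium. PLX+PTX mice were fed chow with PLX3397 from day 80 of age at an average of 40 mg/kg per day, and PTX was injected every 5 days from day 85 at 10 mg/kg. PTX mice had PTX without PLX3397, and the labels describe control chow as the other diet. The injection schedule is written for PLX3397-fed mice, so that of the PTX mice is not separately given, and which of the 14 mice had an isotype antibody is not stated. Values of the other libraries are given beside some results. Of these, WTNT mice had neither PLX3397 nor PTX. Mice labelled PLX+PTX+aPD-1_R or PLX+PTX+aPD-1_NR had PLX3397 and PTX at the doses above. Each library is 1 mouse, amplified from genomic DNA, so rearranged TRB genes were counted, not RNA. No marker of tissue or cell type is present in such data, and the lymph node label could not be checked.

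PLX3397 (pexidartinib) inhibits CSF1R, the receptor on which many macrophages depend, and paclitaxel is a microtubule drug. A T cell's beta chain is built by joining a TRBV, a TRBD and a TRBJ segment, and bases are trimmed and added at the joints. The resulting loop, CDR3, touches the peptide antigen and is the most variable stretch of the chain. A clonotype here is 1 nucleotide CDR3 with its TRBV and TRBJ segment. A receptor joins all clonotypes with the same TRBV, TRBJ and amino acid CDR3. Receptors that recur in many animals are called public, and they often have short CDR3s with few added bases.

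The libraries differed in depth by day. Time point d105 held 1327206 to 2831566 reads in PLX+PTX mice, against 1489496 and 1090573 in PTX mice. Time point d95 held 222369 to 780923 reads in PLX+PTX mice, against 287575 to 509898 in PTX mice. The median clonotype had 13 to 30 reads. Both d105 PTX mice carried mouse numbers from the same block as PLX+PTX replicates 3 and 4, whereas the other 4 PLX+PTX mice came from an earlier block. The replicate 2 library of d95 PLX+PTX stood apart: TRBV1 took 30.6% of its reads, against 21.0% or less in the other PLX+PTX mice of that time point.

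The differences that passed the test across receptors were those of 2 receptors, and their nucleotide CDR3s are shown because they were built differently. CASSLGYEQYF with TRBV26 and TRBJ2-7 was encoded by 15 nucleotide forms in the series, 10 of them in PLX+PTX mice. The 4 forms found in more than 1 PLX+PTX mouse are printed 5′ to 3′, with capitals at the bases that vary among the 15.
TRBV26 form in 5 PLX+PTX mice: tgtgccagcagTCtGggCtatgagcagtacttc
TRBV26 form in 4 PLX+PTX mice: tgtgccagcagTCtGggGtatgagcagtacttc
TRBV26 form in 3 PLX+PTX mice: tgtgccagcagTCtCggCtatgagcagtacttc
TRBV26 form in 2 PLX+PTX mice: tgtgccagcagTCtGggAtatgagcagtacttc
These forms held 2 or 3 inserted bases each. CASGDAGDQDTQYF with TRBV13-2 and TRBJ2-5 had 3 forms in the series, and 1 form, with 0 inserted bases, held all of its reads in the 14 mice. Its capitals mark the bases at which the 3 forms differ.
TRBV13-2 form in 5 PLX+PTX and 3 PTX mice: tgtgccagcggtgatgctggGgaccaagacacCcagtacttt
The TRB locus lies on mouse chromosome 6. The sequences are those of the deposited clonotypes, and no genome build was named for them.

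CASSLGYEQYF with TRBV26 was found in every PLX+PTX mouse and in no PTX mouse. Levels are given in rpm, a receptor's reads per 1000000 reads of its library. On d105 it had 263.8, 263.3, 185, 220.3, 31.1 and 147 rpm in the 6 PLX+PTX mice, against 0 in both PTX mice. The d95 PLX+PTX mice had 229, 182 and 135 rpm, against 0 in all 3 PTX mice. The groups did not overlap on either day, and 1 PLX+PTX mouse, replicate 5 of d105, stood lowest. These levels rest on 54 to 747 reads on d105 and 30 to 179 reads on d95. Set against 3 reads in each PTX library, the limit that a count of 0 allows for independent reads, the PLX+PTX mean was 77.7-fold higher on d105 and 23.5-fold higher on d95. Both ratios cover the counting of reads only, and PCR reads are not independent molecules. The median clonotype had 22 and 27 reads in the d105 PTX libraries, so the ratios are not lower bounds on the difference in level.

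**Figure D1:**
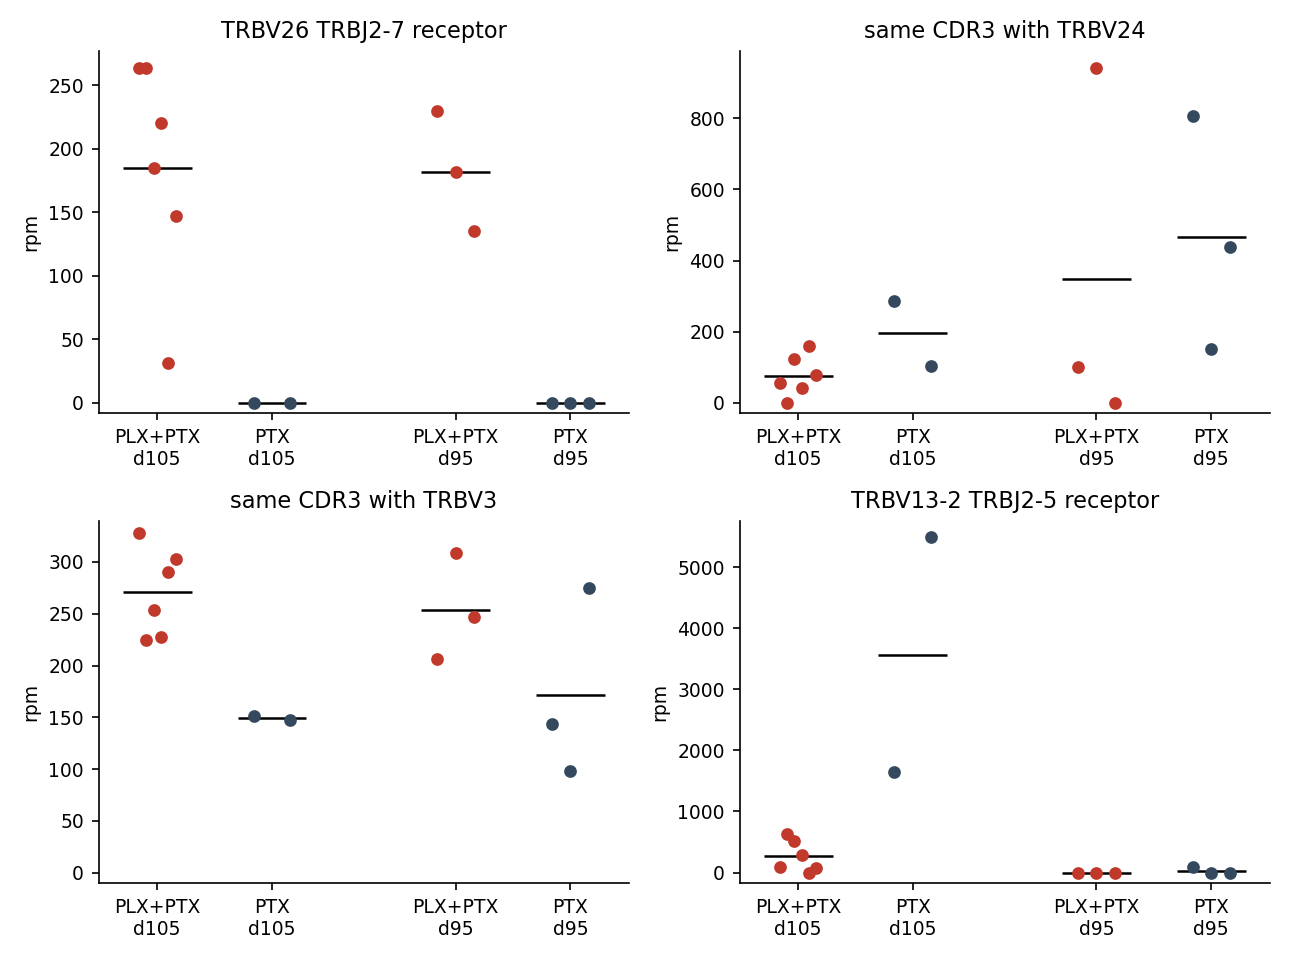
Levels in rpm (y axes) of 4 receptors in each mouse (points), by treatment and day, with horizontal lines at the group means. The TRBV26 receptor lies between 31.1 and 264 in all 9 PLX+PTX mice and at 0 in all 5 PTX mice, whereas the same CDR3 with TRBV24 or TRBV3 is present in PTX mice, and the TRBV13-2 receptor is highest in the 2 PTX mice of d105.

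In edgeR's quasi-likelihood test over the 3211 public receptors, 2 passed an adjusted p of 0.05 in the combined contrast (0.0623%), 1 in each direction. Public receptors were those found in at least 12 of the 23 libraries outside the comparison. The TRBV26 receptor rose with an adjusted p of 0.00427 in the combined contrast, and in edgeR on reads it did not pass on d105 (0.326) or on d95 (0.253) alone. In limma it passed on d95 on reads (adjusted p = 0.018), on the authors' normalized clone count (0.00438) and on their second score (0.00688). On d105 it passed in limma on the second score (0.0253). Its fitted log2 difference, 10.67 ± 2.27 (SE), depends on a prior count because PTX libraries are at 0. The SE was derived from that difference and edgeR's F statistic, so it depends on the prior count too. The adjusted p was 0.336 without PTX replicate 1 of d105, 0.412 without PTX replicate 2 of d105 and 0.441 with the d105 PLX+PTX mice of the PTX mice's number block only. The receptor was named in earlier results of these data, so its pattern here is not independent evidence.

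Each PLX+PTX mouse held 1 to 4 nucleotide forms of the TRBV26 receptor, with 30 to 500 reads per form. Of the 10 forms in these mice, 6 were found in 1 mouse each. The receptor was also found outside the comparison: in 5 of 5 WTNT mice of d105, in 3 of 6 and 4 of 4 mice labelled PLX+PTX+aPD-1_R and PLX+PTX+aPD-1_NR of d105, and in 5 of 5 and 0 of 3 such mice of d95. WTNT mice, which had neither drug, averaged 157 ± 40.6 rpm (SD, n = 5), between the levels of single PLX+PTX mice.

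The same CDR3 was followed with 5 other TRBV segments, and with TRBV3, TRBV24 and TRBV29 it was found in all 5 PTX mice. With TRBV3 it averaged 271 ± 42.7 rpm in d105 PLX+PTX mice (SD, n = 6), against 151 and 148 in PTX mice, and the groups did not overlap. On d95 the TRBV3 receptor averaged 254 ± 51.5 in PLX+PTX mice and 172 ± 91.8 in PTX mice (SD, n = 3 each), and the groups overlapped. With TRBV24 it was found in 7 of 9 PLX+PTX mice and 5 of 5 PTX mice, with means of 76.3 rpm in PLX+PTX mice and 195 in PTX mice on d105, and 348 in PLX+PTX mice and 465 in PTX mice on d95. With TRBV29 it was found in 7 of 9 PLX+PTX mice and 5 of 5 PTX mice, in 1 of the PTX mice by a single read. With TRBV19 it was found in 4 of 9 PLX+PTX mice, 2 of them of d95, and in 1 of 5 PTX mice, of d105. With TRBV4 it was found in 1 of 9 PLX+PTX mice and 1 of 5 PTX mice, both of d105.

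Counts of clonotypes of the same segment pair are given beside those of all segments, since the d105 PTX libraries held fewer clonotypes over all segments. TRBV26 TRBJ2-7 gave 570 to 927 nucleotide clonotypes in d105 PLX+PTX mice, against 387 and 222 in PTX mice, which was 0.944% to 1.11% of all clonotypes of a library in PLX+PTX mice, against 0.908% and 0.938% in PTX mice. Of the 27 public receptors of this segment pair, 12 to 21 were found in d105 PLX+PTX mice (44.4% to 77.8%), against 11 and 4 in PTX mice (40.7% and 14.8%). Of all 3211 public receptors, 61.3% to 79.5% were found in d105 PLX+PTX mice, against 55.8% and 39.1% in PTX mice. No trait of the segment pair is read from these counts. On d95 the counts were 16, 10 and 13 in PLX+PTX mice, against 12, 9 and 8 in PTX mice, so these groups overlapped.

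As background for the presence pattern, 384 of the 3211 public receptors (12%) were found in no PTX mouse. In 9 of 9 PLX+PTX mice 111 (3.46%) were found, and in 5 of 5 PTX mice 95 (2.96%). The list was drawn from libraries outside the comparison, none of which came from mice given PTX alone. A receptor particular to PTX mice could therefore hardly enter it, so the reverse pattern, shown by 0 receptors, carries little weight. The TRBV26 receptor was the only one (0.0311%) found in 9 of 9 PLX+PTX and 0 of 5 PTX mice. Another 5 were found in 8 of 9 PLX+PTX and 0 of 5 PTX mice, and they were picked out by that count. The one of TRBV2 with TRBJ2-4 had 36 to 131 reads in the d105 PLX+PTX mice and 119, 0 and 27 in those of d95. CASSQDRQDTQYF, of TRBV2 with TRBJ2-5, had up to 232 reads and was missing from replicate 5 of d105. The other 3, with TRBV1 or TRBV24, had at most 71 reads in any mouse. By contrast 31 receptors (0.965%) were found in all 14 mice.

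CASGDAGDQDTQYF with TRBV13-2 was lower in PLX+PTX mice than in PTX mice in the combined contrast. TRBV13-2 lies in the part of the TRB locus that is deleted in FVB/N mice, and the labels do not give the strain. The 9 listed segments of that part together took 0.0171% to 0.0981% of reads in d105 PLX+PTX mice, against 0.218% and 0.678% in PTX mice. Without this receptor they took 0.00777% to 0.0398%, against 0.0531% and 0.13% in PTX mice. With it, the 9 segments took 0.0102% to 0.0234% in d95 PLX+PTX mice, against 0.021% to 0.0379% in PTX mice. Over all 37 libraries they took 0.0024% to 0.838%. Where the reads of these segments come from was not tested. On d105 the receptor had 93.2, 632, 513, 288, 0 and 71.6 rpm in PLX+PTX mice, against 1650 and 5485 in PTX mice. On d95 it was at 0 in all 3 PLX+PTX mice, against 97.0, 0 and 0 in PTX mice. The d105 groups did not overlap, and the d95 call, the 1 of 3211 receptors that edgeR called on reads of that day (0.0311%), rests on 42 reads in 1 mouse. On d105 alone edgeR passed 0 of 3211 receptors after adjustment (0.0%), while 258 (8.03%) had an unadjusted p under 0.05. The TRBV13-2 receptor was not among the 15 receptors that limma called on d95, the 14 called in the normalized clone count or the 12 in the second score.

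This receptor was the largest of both d105 PTX libraries, at 0.165% of reads (95% Wilson interval 0.159% to 0.172%) in replicate 1 and 0.549% (0.535% to 0.563%) in replicate 2. The log2 difference was −5.50 ± 0.89 (SE, edgeR, adjusted p = 2.29e-06). Without PTX replicate 1 of d95 it was −1.56 with an adjusted p of 1, and without PTX replicate 2 of d105 the adjusted p was 0.412. It was not called by limma on log2 shares (adjusted p = 0.617) or by DESeq2 (adjusted p = 0.0911). It was also not called by limma in the authors' normalized clone count (adjusted p = 0.471) or in their second score (adjusted p = 0.528). The same nucleotide form was found in 19 of the 23 mice outside the comparison. On d105 the receptor had 152 to 6494 rpm in WTNT mice (n = 5), a range that holds both d105 PTX levels. It had 85.9 to 4990 rpm in PLX+PTX+aPD-1_R mice (n = 6) and 472 to 2220 in PLX+PTX+aPD-1_NR mice (n = 4) of d105.

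The count of receptors that passed depended on the tool. At an unadjusted p under 0.05, edgeR gave 476 of 3211 (14.8%). DESeq2 gave 267 higher and 64 lower after adjustment, of 2619 receptors to which it gave an adjusted p. Limma on log2 shares gave 1 of 3211, the TRBV26 receptor. On d105 DESeq2 called 265 higher and 0 lower of 2677 with an adjusted p. On that day 61.3% to 79.5% of all public receptors were found in PLX+PTX mice, against 55.8% and 39.1% in PTX mice. Limma called 0 of 3211 on d105 on reads, 0 in the normalized clone count and 1 in the second score. On d95 DESeq2 called 149 higher and 138 lower of 2273 with an adjusted p, and limma 9 higher and 6 lower of 3211. In simulated libraries with the spread of these data, edgeR recovered 0% of receptors changed by 2, 4 or 6 on the log2 scale and 12% of those changed by 12. At an unadjusted p under 0.05 it recovered 20%, 44%, 70% and 86% of those changed by 2, 4, 6 and 12. These shares hold for edgeR in the simulated libraries, and the other tools were not simulated. Before the change, each simulated receptor had 1 mean share over both days and treatments. The recovery therefore need not be that of the real libraries.

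At equal reads, each d105 PLX+PTX library held more clonotypes than both d105 PTX libraries. Thinned to 222369 reads, they held 45599, 33430, 43579, 61362, 46574 and 44880 clonotypes in PLX+PTX mice, against 31157 and 18244 in PTX mice. The d95 libraries held 21786, 11605 and 13576 clonotypes in PLX+PTX mice, against 17458, 14921 and 13727 in PTX mice, and the groups overlapped.

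The d105 difference in richness was 21204 clonotypes, with an exact permutation p of 0.0357 (2-sided, n = 6 and 2), the smallest that 28 regroupings allow, and an adjusted p of 0.131 over the 11 repertoire measures. On d95 it was 287 clonotypes (exact p = 1, n = 3 each; 20 regroupings allow no p under 0.1). The combined difference was 10745 clonotypes, with an exact permutation p of 0.0375 over 560 regroupings and an adjusted p of 0.412. The change between days had an exact permutation p of 0.0464 and an adjusted p of 0.17. The 2 PLX+PTX mice of the same number block as the PTX mice held 43579 and 61362 clonotypes. Other d105 groups averaged 43840 (PLX+PTX+aPD-1_R), 44595 (PLX+PTX+aPD-1_NR) and 47859 (WTNT). The alternatives for richness were a lower thinning depth and only the PLX+PTX mice of the PTX mice's number block. In these the combined adjusted p was 0.393 to 0.672 (exact permutation test). How much of the difference goes with mouse block was not estimated. Fewer T cells in a node and less DNA amplified cannot be told apart.

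**Figure D2:**
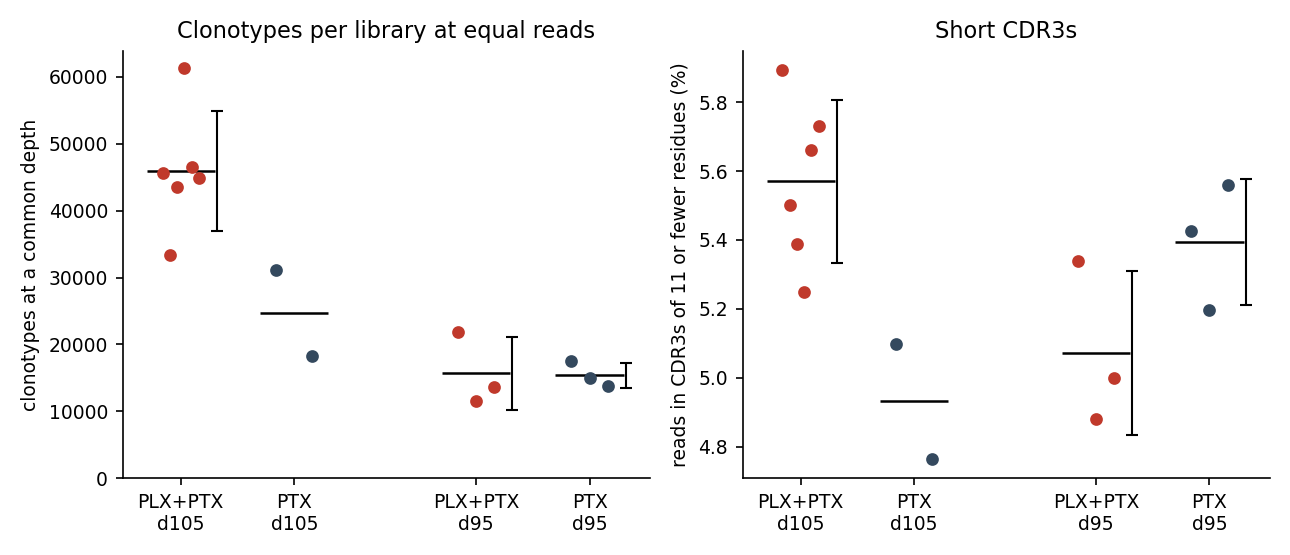
Clonotypes per library after thinning to equal reads (left) and percent of reads in CDR3s of 11 or fewer residues (right), by treatment and day. Points are mice, lines are means and bars are SDs of groups of 3 or more. On d105 every PLX+PTX mouse lies above both PTX mice in both panels, and on d95 the groups overlap.

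Short CDR3s, of 11 residues or fewer, averaged a larger share of reads in PLX+PTX mice than in PTX mice on d105 and a smaller one on d95. On d105 the share was 5.89%, 5.50%, 5.39%, 5.25%, 5.66% and 5.73% in PLX+PTX mice, against 5.10% and 4.77% in PTX mice. On d95 it was 5.34%, 4.88% and 5.00% in PLX+PTX mice, against 5.43%, 5.20% and 5.56% in PTX mice. The groups did not overlap on d105 and overlapped on d95.

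The difference was 0.639 percentage points on d105 (exact permutation p = 0.0357, adjusted p = 0.131) and −0.322 points on d95 (exact permutation p = 0.2). The change between days, 0.961 points, had an exact permutation p of 0.00357 and an adjusted p of 0.0393 over the 11 measures. It was the 1 repertoire measure that passed in that contrast, and none passed in the combined one. The call was lost when any 1 of 12 of the 14 mice was left out (0.794 to 1.13 points, adjusted p up to 0.236), and kept without PLX+PTX replicate 1 or PTX replicate 2 of d95. With each clonotype counted once in place of its reads the change between days was 0.124 points (exact permutation p = 0.616), and in the authors' normalized clone count it was 0.319 points (exact permutation p = 0.402). With only the PLX+PTX mice of the PTX mice's block it was 0.708 points (exact permutation p = 0.0333, adjusted p = 0.367).

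The short share was also taken within each TRBV segment, as means with no test. Of 12 TRBV segments, 11 had a higher short share in d105 PLX+PTX mice, with TRBV20 at 12.7%, against 10.2% in PTX mice, and TRBV1 the exception at 3.28%, against 3.35% in PTX mice. On d95, 4 of 12 had a lower short share in PLX+PTX mice, among them TRBV1 at 2.45%, against 3.68% in PTX mice, and TRBV19 at 7.45%, against 8.72% in PTX mice. Only 3 of 12, TRBV19, TRBV24 and TRBV29, did both. Without the TRBV26 receptor the differences were 0.62 points on d105 and −0.34 points on d95. Public receptors contributed 0.236 and −0.173 points on the 2 days, and all other clonotypes 0.402 and −0.149 points.

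Among single lengths, 11 residues was the one called on d105 and between days. CDR3s of 11 residues averaged 4.43% ± 0.194 of reads in d105 PLX+PTX mice (SD, n = 6), against 4.18% and 3.71% in PTX mice. On d95 they averaged 4.05% ± 0.169 in PLX+PTX mice and 4.34% ± 0.0313 in PTX mice (SD, n = 3 each). The d105 groups overlapped, since PLX+PTX replicate 4, at 4.16%, lay below PTX replicate 1. In edgeR's test over 10 lengths, length 11 was 1 of 10 called on d105 (10.0%), with a log2 difference of 0.17 ± 0.05 and an adjusted p of 0.00477. It did not pass on d95 (−0.10, adjusted p = 0.159).

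The difference between days for length 11 was 0.27 ± 0.07 on the log2 scale (edgeR, adjusted p = 0.000849), again 1 of 10 lengths (10.0%). Without PTX replicate 2 of d105 it was 0.19 with an adjusted p of 0.0772, and the d105 difference was 0.08 with an adjusted p of 0.805. The d105 call was also lost in limma (adjusted p = 0.067), with TMM scaling (0.0959), without the minimum share (0.0681), in both of the authors' scores (0.671 and 0.121) and in the number block (0.830). The call between days was lost in both scores (0.579 and 0.132) and in the number block (0.144). In the combined contrast 0 of 10 lengths passed (0.0%), and 0 had an unadjusted p under 0.05. The 3 lengths of smallest p there were 9 (−0.35), 17 (0.08) and 10 (0.13) on the log2 scale, each with an adjusted p of 0.516. CDR3s of 9 residues took 0.057%, 0.0894% and 0.0702% of reads in d95 PLX+PTX mice, against 0.127%, 0.131% and 0.111% in PTX mice, without overlap (edgeR adjusted p = 0.0531).

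**Figure D3:**
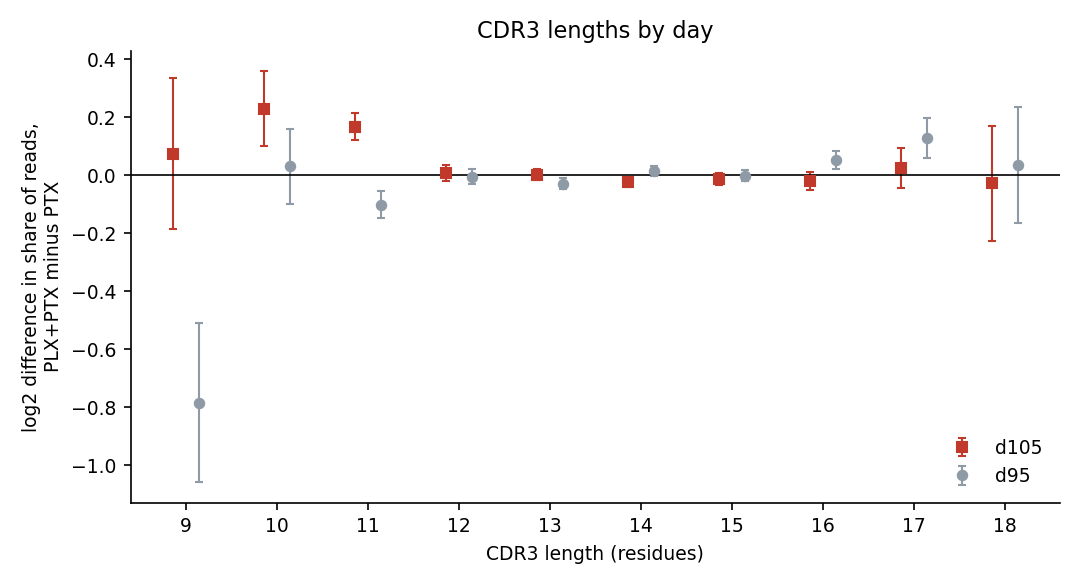
Log2 difference in share of reads, PLX+PTX minus PTX (y axis), for each CDR3 length in residues (x axis) on each day. Bars are 1 SE, derived from edgeR's F statistic. Length 11 is at 0.17 on d105 and at −0.10 on d95.

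None of the other repertoire measures passed the test. Clonality, 1 minus the evenness of reads over clonotypes, averaged 0.0502 in PLX+PTX mice and 0.0537 in PTX mice on d105, and 0.0534 in PLX+PTX mice and 0.0511 in PTX mice on d95. Mean CDR3 length was 13.80 residues in PLX+PTX mice and 13.82 in PTX mice on d105, and 13.87 in PLX+PTX mice and 13.84 in PTX mice on d95 (change between days, exact permutation p = 0.0411, adjusted p = 0.17). The 10 largest clonotypes together took 0.64% of reads in PLX+PTX mice and 0.798% in PTX mice on d105, and 0.685% in PLX+PTX mice and 0.59% in PTX mice on d95. The largest receptor of a library took 0.067% to 0.309% of reads in PLX+PTX mice, against 0.0806% to 0.549% in PTX mice. In PTX replicate 1 of d95 the largest was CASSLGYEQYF with TRBV24.

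Convergent receptors, those with at least 2 nucleotide forms among 12516 clonotypes drawn per library, made up 1.82% of receptors in d105 PLX+PTX mice and 2.36% in PTX mice, with every PLX+PTX mouse below both PTX mice (exact permutation p = 0.0357, adjusted p = 0.131). That separation was nearly a tie, with PLX+PTX replicate 6 at 2.1325% and PTX replicate 1 at 2.1334%. Each value is a mean of 20 random draws, so the order of these 2 mice is not firm. On d95 they made up 3.82% in PLX+PTX mice and 3.47% in PTX mice. Public receptors took 9.77% of reads in PLX+PTX mice and 9.94% in PTX mice on d105, and 11.1% in PLX+PTX mice and 10.7% in PTX mice on d95. Long CDR3s, clonotypes of at least 0.1% of reads, CDR3s with hydrophobic residues 6 and 7 and CDR3s with an inner cysteine had combined adjusted p-values of 0.805 to 0.868 by the exact permutation test. In these 14 libraries 99.0% to 99.6% of inner-cysteine reads used TRBV1, so that share follows TRBV1 usage.

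On d105, pairs of mice of 1 treatment had a higher mean overlap than pairs across treatments. The Morisita-Horn index runs from 0 for no shared receptors to 1 for identical repertoires. On d105 it averaged 0.189 over 15 pairs of PLX+PTX mice and was 0.181 for the 1 pair of PTX mice, against 0.137 over 12 pairs across treatments. On d95 it averaged 0.0885 within PLX+PTX mice and 0.092 within PTX mice (3 pairs each), against 0.0945 over 9 pairs across treatments. On d105 the lowest pair of PLX+PTX mice, at 0.156, lay within the range of pairs across treatments, which reached 0.169.

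The within-group mean exceeded the between-group mean by 0.0519 on d105 (exact permutation p = 0.0357) and by −0.00421 on d95 (exact permutation p = 0.1). Averaged over days the excess was 0.0239 (exact permutation p = 0.0357), and its change between days had an exact permutation p of 0.00357. The PTX pair rested largely on 1 receptor: without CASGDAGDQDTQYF its index was 0.101, below the mean of 0.136 across treatments, whereas pairs of PLX+PTX mice averaged 0.188, and the combined excess was 0.0212 (exact permutation p = 0.0464). The combined p was 0.143 without PTX replicate 1 of d105 and 0.186 without PTX replicate 2 of d105. With the PLX+PTX mice of the PTX mice's block only it was 0.333, by the exact permutation test.

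**Figure D4:**
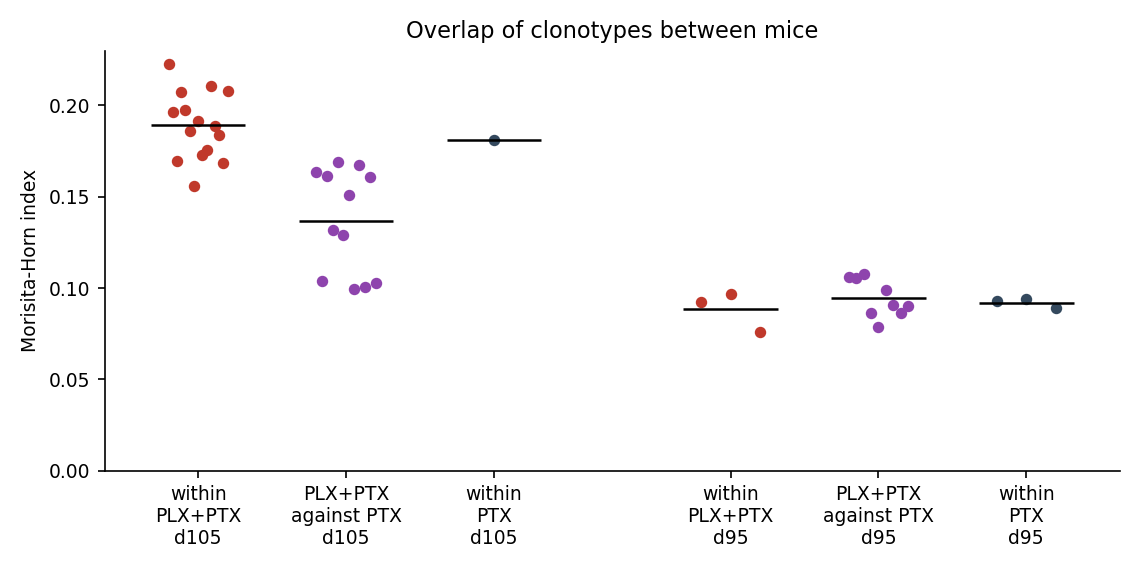
Morisita-Horn index (y axis) of each pair of mice of the same day (points), within treatments and across them, with lines at the means. Pairs of d105 PLX+PTX mice average 0.189 and pairs across treatments 0.137, and on d95 the 3 kinds of pairs lie between 0.076 and 0.108.

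No TRBV or TRBJ segment passed the test. Of 24 segments that reached a mean of 0.1% of reads, 0 were called in the combined contrast (0.0%), on d105 (0.0%), on d95 (0.0%) and between days (0.0%). At an unadjusted p under 0.05 edgeR gave 0 in the combined contrast, 2 on d105 (8.33%) and 2 between days (8.33%). DESeq2 and limma called 0 in the combined contrast. Over the 24 segments, 14 combined differences were positive and 10 negative, with a median of 0.02 on the log2 scale. Without the d95 library that stood apart, TRBV2 passed in the combined contrast (log2 0.19, edgeR adjusted p = 0.0484).

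TRBV26, whose T cells respond to mammary tumor virus superantigens in some strains, took 6.74%, 7.16%, 6.97%, 7.63%, 6.67% and 7.05% of reads in d105 PLX+PTX mice, against 6.19% and 5.37% in PTX mice. On d95 it took 6.32%, 3.49% and 4.27% in PLX+PTX mice, against 5.69%, 5.61% and 5.12% in PTX mice. The d105 groups did not overlap, and the d95 groups did. The log2 difference was 0.28 ± 0.16 on d105 and −0.22 ± 0.16 on d95, and the change between days, 0.51 ± 0.23, had an edgeR adjusted p of 0.519. Without PLX+PTX replicate 1 of d95 that change was 0.78 with an adjusted p of 0.00132.

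The other segments of the superantigen-related list, TRBV1, TRBV19 and TRBV29, had combined log2 differences of 0.08, −0.17 and −0.02 (edgeR adjusted p = 0.959 each). The list's median was 0.01 with 0 of 4 called. Invariant T cells, such as natural killer T and mucosal-associated invariant T cells, favour TRBV1, TRBV13, TRBV19 and TRBV29. Of that list of 6 segments 3 were abundant enough to be tested, and 0 were called, with a median of −0.02. None of the 9 segments of the FVB/N deletion reached the share needed for the test. When segments below that share were kept, TRBV13-2 passed as lower in PLX+PTX mice (log2 −3.58, edgeR adjusted p = 0.0264 over 33 segments), and the pair TRBV13-2 TRBJ2-5 took 0.165% and 0.549% of reads in d105 PTX mice, the same rounded shares as the receptor above.

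Of 12 TRBJ segments tested 0 passed. TRBJ1-6 came closest on d105, at 5.11% ± 0.317 in PLX+PTX mice (SD, n = 6) against 4.47% and 4.11% in PTX mice, without overlap (log2 0.25 ± 0.08, edgeR adjusted p = 0.174). TRBJ1-2 followed, at 6.56% ± 0.313 in PLX+PTX mice against 6.11% and 5.50% in PTX mice (log2 0.18, adjusted p = 0.572, edgeR). With all 37 libraries sharing the estimate of spread, TRBJ1-6 passed on d105 (adjusted p = 0.00741) and between days (adjusted p = 0.0317). Without overlap on d105, 4 of 24 segments were higher (16.7%) and 1 lower (4.17%) in PLX+PTX mice: TRBV2, TRBV26, TRBJ1-2 and TRBJ1-6, and TRBJ2-5. On d95, 0 of 24 were separated in either direction (0.0%).

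**Figure D5:**
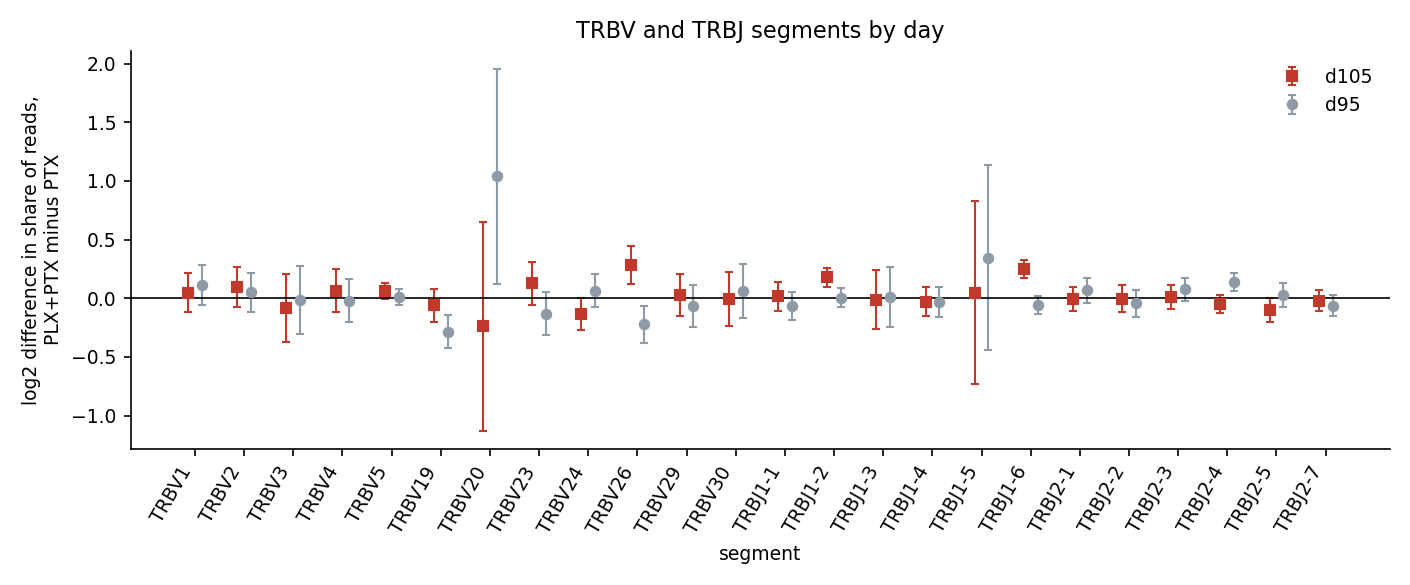
Log2 difference in share of reads, PLX+PTX minus PTX (y axis), of 24 TRBV and TRBJ segments (x axis) on each day. Bars are 1 SE, derived from edgeR's F statistic. TRBV26 is at 0.28 on d105 and −0.22 on d95, and no segment passes the test on either day.

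No segment pair or residue passed in edgeR on reads. Of 113 TRBV-TRBJ pairs 0 were called in the combined contrast (0.0%), with 2 at an unadjusted p under 0.05 in edgeR (1.77%) and 0 after adjustment in DESeq2 and limma. On d105 edgeR gave 4 at an unadjusted p under 0.05 (3.54%) and between days 3 (2.65%). In limma on reads, TRBV13-2 TRBJ2-5 passed as lower in d105 PLX+PTX mice (adjusted p = 0.0267). It also passed in limma on the normalized clone count (0.005) and the second score (0.0232). The 3 pairs of smallest p were TRBV13-2 TRBJ2-5 (log2 −4.24), TRBV19 TRBJ2-7 (−0.24) and TRBV29 TRBJ2-4 (−0.26), each with an edgeR adjusted p of 0.993. TRBV19 TRBJ2-7 took 4.75%, 3.40% and 4.66% of reads in d95 PLX+PTX mice, against 5.48%, 5.11% and 5.02% in PTX mice, without overlap, as for 2 of 113 pairs that were lower on that day (1.77%). On d105, 20 of 113 pairs were higher in every PLX+PTX mouse (17.7%) and 7 lower (6.19%). Among those higher was TRBV26 TRBJ1-6, named after its values were seen, at 0.785% ± 0.0785 in PLX+PTX mice (SD, n = 6) against 0.519% and 0.461% in PTX mice (edgeR between days, log2 0.93, adjusted p = 0.996). DESeq2 called this pair on d105 (adjusted p = 0.0172) and between days (0.0317). Of the 20 amino acids of the inner CDR3, without its outer 4 residues on each side, 0 were called (0.0%) by edgeR, DESeq2 or limma and 0 had an unadjusted p under 0.05 in edgeR. Proline, isoleucine and leucine had the smallest p, at log2 differences of −0.03, −0.10 and −0.02 (edgeR adjusted p = 0.904 each).

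Of 693 motifs of 3 residues, 0 were called in the combined contrast by edgeR (0.0%), with 55 at an unadjusted p under 0.05 (7.94%), and DESeq2 called 3. DAG, AGD and TDS had the smallest p, at log2 differences of −0.82, −0.63 and −0.53 (edgeR adjusted p = 0.21 each). On d105 DAG was the 1 motif called (0.144%), lower by a log2 difference of −1.42 ± 0.27 (edgeR adjusted p = 0.011). It lay in 0.198% to 0.225% of reads in PLX+PTX mice, against 0.344% and 0.776% in PTX mice, without overlap. DAG and AGD both lie in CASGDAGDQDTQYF. Without that receptor's reads DAG had a d105 difference of −0.16 (edgeR adjusted p = 1) and 0 motifs passed. The d105 call of DAG was also lost without PTX replicate 2 of d105 (log2 −0.71, edgeR adjusted p = 0.998), in limma (adjusted p = 0.353), with all 37 libraries sharing the spread (0.168), in both of the authors' scores (0.987 and 0.912) and in the number block (0.744). TDS, which is not part of that receptor, took 0.121% to 0.177% of reads in d105 PLX+PTX mice, against 0.235% and 0.236% in PTX mice, and 0.159%, 0.193% and 0.146% in d95 PLX+PTX mice, against 0.235%, 0.223% and 0.225% in PTX mice. Its groups did not overlap on either day, as for 6 of 693 motifs that were lower on both days (0.866%).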

How the data were processed

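Libraries of TRB rearrangements from lymph node genomic DNA of 14 mice were compared, each mouse being 1 sample. The deposited clone counts, whole numbers of reads per nucleotide clonotype that the authors made, were used as deposited per the file headers. No source used here names an aligner, a caller or a genome build. The authors' 2 other columns are scores, clone counts multiplied by a factor per TRBV and TRBJ pair and rounded (0.206 to 75.5 for the normalized clone count), as found from the deposited values, and served as alternatives. Such factors change shares of segments, and reads follow PCR as well as cell number, so read counting intervals are too narrow.

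Repertoire measures were tested by exact 2-sided permutation within day (28 and 20 regroupings, 560 combined), with Benjamini-Hochberg adjustment over 11 measures. Features were fitted in edgeR 4.0.16 (quasi-likelihood, R 4.3.3) with 4 group means, and the combined contrast was the mean of both within-day differences. Each SE of an edgeR difference is the size of the log2 difference divided by the square root of its F statistic. Minimum mean shares were 0.1% (0.05% for pairs), and calls used an adjusted p under 0.05. DESeq2 1.42.0 and limma 3.58.1 (pseudocounts of 0.01% of reads, and of 10 rpm for receptors) were alternatives, as were leaving out each mouse and keeping 1 block of mouse numbers. Features in the authors' scores were fitted in limma. The fit was tested on simulated data. Python 3.11.15 with scipy 1.17.1 was used for the rest.

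Named were all repertoire measures, listed segments, features past the threshold or, with none, the 3 of smallest p, the largest receptor of each library (given as a range, with 2 named), and the TRBV26 receptor. TRBJ1-6, TRBJ1-2, TRBV2, TRBV20, TRBV26 TRBJ1-6 and receptors picked by presence were named after their values were seen. The comparison, the lists and the TRBV26 receptor were chosen with earlier results of these data known.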

Additional observations from a re-analysis of the deposited data

Results flagged for a closer look

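There were 3 measurements flagged because their effects differed between the 2 days in the main test. They are not separate findings, since CDR3s of 11 residues are part of the short share. The change between days in the share of short CDR3s was 0.961 percentage points, higher in PLX+PTX mice on d105 and lower on d95. Its exact permutation p was 0.00357 (adjusted p = 0.0393), and the call was lost when most single mice were left out. For CDR3s of 11 residues the change was 0.27 on the log2 scale (edgeR adjusted p = 0.000849). Neither of these calls was kept in the authors' scores or in the number block. The excess of overlap within treatments over that between them was larger by 0.0561 on d105 than on d95 (exact permutation p = 0.00357, not adjusted). The days also differ in depth, in mouse numbers and in group sizes, which cannot be told apart from the day.

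Of 48 measures looked at in the 6 d105 PLX+PTX mice, 3 had 1 mouse far from the others by Dixon's criterion, which flags about 1 in 20 groups by chance. Replicate 6 had the highest convergent share, 2.13%, and the lowest TRBV23 share, 0.996%. Replicate 1 had the lowest TRBV4 share, 6.52%.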

How the results depend on the processing

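No paired analysis was possible because the labels give no replicate numbers, and those used here only name mice in order of deposit. Over all results and alternatives, 1016 values kept their direction and side of the threshold, 47 lost a call, 19 gained one, 45 moved and 37 changed sign. In the authors' normalized clone count and their second score the combined difference in clonality was 0.000476 and 0.00048, in the top 10 share 0.207 and 0.0474, in the expanded share 0.341 and 0.14, and in mean CDR3 length −0.00359 and −0.00373. With a limit of 0.05% the expanded share differed by 0.29. With each clonotype counted once, mean CDR3 length differed by −0.00643, the public share by −0.109, the inner cysteine share by −0.0296, TRBV26 by −0.023 and TRBV29 by 0.076 (log2). With the d105 PLX+PTX mice of the PTX mice's number block only, the top 10 share differed by 0.0142, the public share by −0.108 and the excess overlap was 0.0186, and it was 0.0197 in the normalized count. Without the share minimum 1 segment and 1 motif passed, the motif being PLA. With all 37 libraries in the fit 1 segment passed between days. DESeq2 called 3 motifs and 331 public receptors, and between days 1 pair, 3 lengths and 339 public receptors. It gave an adjusted p to 2619 public receptors in the combined contrast and to 2561 between days. The public receptors called were 1 in each score, in limma and in the number block, and between days 1 in the normalized count. Between days, 0 lengths and 0 repertoire measures passed in either score or the number block. Leaving out each mouse in turn, the combined difference ranged from −0.00348 to 0.000968 in clonality, −0.109 to 0.0452 in the top 10 share, −0.126 to 0.00514 in the expanded share, −0.0035 to 0.011 in mean length, −0.217 to 0.286 in the public share, −0.301 to 0.193 in the convergent share, −0.905 to 2.74 in the inner cysteine share and 0.0114 to 0.0368 in excess overlap. On the log2 scale it ranged from −0.11 to 0.12 in TRBV26, −0.060 to 0.18 in TRBV1, −0.12 to 0.096 in TRBV29 and −6.31 to 0.24 in TRBV13-2 TRBJ2-5. The calls ranged over 0 to 1 segments, 0 to 2 motifs and 0 to 3 public receptors (0 without PTX replicate 2 of d105), and between days over 0 to 1 segments, 0 to 2 pairs, 0 to 2 lengths, 0 to 1 public receptors and 0 to 4 repertoire measures. Except for the share minimum and the left-out mice, which change what is tested, the cause was not tested. With 2 PTX mice at d105, no d105 permutation p can fall below 0.0357, and d95 libraries hold fewer reads.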
